A study of Mus musculus with 4 samples.

Results

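Antibody-enriched peaks of N6-methyladenosine (m6A, a methyl mark on adenosine in RNA) that lie in exons of noncoding genes are described here in mouse macrophages. A peak was a member where the authors' own annotation of the region read noncoding RNA exon. There were 2759 such peaks in 1996 genes among 38697 cKO peaks, and 2571 in 1890 genes among 36507 WT peaks. The authors' deposited table of differential peaks held 656 members in 600 genes among 10355 listed peaks.

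Both groups were C57BL/6 bone-marrow-derived macrophages grown with M-CSF, the macrophage growth factor, for 7 days and then co-cultured for 24 hours with the mouse colon tumour line MC38. The cKO macrophages carried floxed Mettl3 alleles and a Cre recombinase driven by the promoter of lysozyme M, a gene of the myeloid lineage. The WT macrophages carried the floxed Mettl3 alleles without Cre, so the floxed allele, the growth factor and the tumour cells were common to both. Each genotype had 1 library of antibody-enriched fragments (IP) and 1 of fragments that had not met the antibody (input), 4 libraries in all.

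Mettl3 is the catalytic subunit of the nuclear complex that writes m6A on RNA made by RNA polymerase II, mostly in the sequence context DRACH, which includes GGAC. The complex marks long noncoding RNAs as well as mRNAs, and Xist, Malat1 and Neat1 are known carriers of the mark. Long noncoding RNAs are spliced and polyadenylated like mRNAs but are mostly kept in the nucleus, host genes carry small RNAs in their introns, and processed pseudogenes are copies of mRNAs pasted back into the genome.

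With no replicates there is no spread between cultures, no p-value was computed here, and each difference is between single libraries. The read depth of the libraries is unknown. Mettl3, the deleted gene, had 4 peaks in cKO macrophages (log2 IP over input of 0.86 to 1.80) and 2 peaks in WT macrophages (1.33 and 1.37), which does not show whether the gene was deleted, and no input value. Of 8 macrophage markers, 7 had an input value, such as Cd68 with 634 FPKM in cKO and 695 FPKM in WT input (FPKM is a fragment count scaled to gene length and library size). All 5 mesenchymal markers had a value, led by Sparc in both genotypes, and summed to 194.8 FPKM in cKO and 108.8 FPKM in WT input. The macrophage markers with a value summed to 7827 FPKM in cKO and 9099 FPKM in WT input. That sum includes Lyz2, the gene of lysozyme M whose promoter drives Cre, with 1980 FPKM in cKO and 3393 FPKM in WT. Of the other macrophage markers with a value, Adgre1, Cd68 and Mertk were lower in cKO, and Itgam, Fcgr1 and Ctss were higher. Of 6 epithelial markers, Krt19 alone had an input value (10.8 FPKM in cKO, 7.05 FPKM in WT), 4 had a peak in both genotypes (Cdh1, Krt8, Krt18 and Krt19), and Epcam and Krt20 had none in either. The part of MC38 or mesenchymal cells in the results below was not tested, and fewer cells of a type and less RNA per cell cannot be told apart.

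The following stretches show GGACT, the DRACH form most often seen, in the strongest cKO peak of well-known long noncoding RNAs. In each, a WT peak covered the same GGACT. Capitals mark GGACT, and 18 bases stand on either side, written 5′ to 3′ along the transcript as DNA letters from GENCODE M21 (build mm10).
Xist: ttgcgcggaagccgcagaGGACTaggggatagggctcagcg
Neat1: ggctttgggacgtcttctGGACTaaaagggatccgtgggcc
Malat1: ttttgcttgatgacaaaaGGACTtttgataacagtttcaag
Kcnq1ot1: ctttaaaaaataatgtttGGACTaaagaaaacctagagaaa
Trp53cor1: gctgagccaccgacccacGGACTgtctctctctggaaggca
Oip5os1: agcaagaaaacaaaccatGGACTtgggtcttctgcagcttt
These lie under peaks with a log2 IP over input of 3.87 for Xist, 3.28 for Neat1, 2.24 for Malat1, 5.20 for Kcnq1ot1, 3.84 for Trp53cor1 and 2.01 for Oip5os1 in cKO macrophages. The WT peak over the same base had 3.88 for Xist, 3.35 for Neat1, 2.14 for Malat1, 5.65 for Kcnq1ot1, 3.09 for Trp53cor1 and 2.17 for Oip5os1. The Trp53cor1 peaks differ in extent, with 1425 exonic bases in cKO and 2904 in WT. That WT peak also covered the weaker cKO peaks of the gene, so its 2 values are not of the same stretch. The peaks are far longer than 1 motif, and the match does not place the methylated base.

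Noncoding peaks made up 7.13% of cKO peaks (95% Clopper-Pearson interval 6.88 to 7.39) and 7.04% of WT peaks (6.78 to 7.31), intervals that cover counting error only and overlap. By gene biotype, long noncoding RNAs of all classes held 1775 cKO peaks (64.3%) and 1642 WT peaks (63.9%). The most numerous class was the antisense lncRNA, transcribed against another gene, with 883 cKO and 806 WT peaks. Pseudogenes followed with 674 cKO and 637 WT peaks, and intergenic lncRNAs (lincRNAs) with 466 cKO and 425 WT peaks. Transcripts still awaiting experimental proof, called TEC, had 202 cKO and 193 WT peaks. Transcripts from bidirectional promoters had 89 cKO and 83 WT peaks. Genes of small RNAs were rare, with 27 cKO and 18 WT peaks in miRNA genes and 29 cKO and 26 WT peaks in other small or structural RNA genes. The annotation itself was mixed, since 45 cKO and 50 WT peaks lay in genes that GENCODE M21 lists as protein coding.

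**Figure D1:**
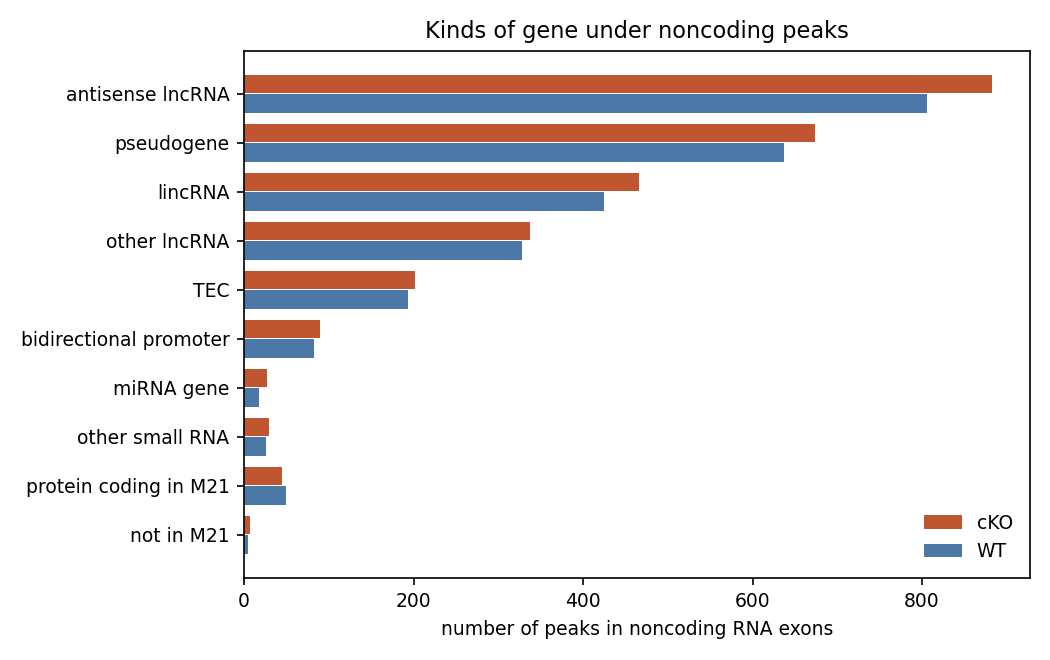
Number of peaks in noncoding RNA exons by kind of gene, with cKO bars above WT bars. Antisense lncRNAs lead with 883 cKO and 806 WT peaks, and the order of the 6 largest kinds is shared by both genotypes.

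The median enrichment of noncoding exons was above that of the whole list in both genotypes. The median log2 IP over input of noncoding peaks was 1.67 in cKO and 1.68 in WT macrophages, against 1.30 for all cKO peaks and 1.22 for all WT peaks. A log2 of at least 2 was reached by 37.9% of noncoding cKO peaks and 40.6% of noncoding WT peaks, against 18.6% of cKO and 19.8% of WT peaks in other regions. The lowest value a listed noncoding peak had was 0.50 in cKO and 0.45 in WT. Among the large kinds, transcripts from bidirectional promoters had the highest median (2.16 in cKO, 2.22 in WT), then lincRNAs (1.91 in cKO, 2.08 in WT). Pseudogenes had the lowest median of those kinds (1.52 in cKO, 1.49 in WT). Noncoding genes were lowly expressed where an input value existed: the median of the mean of both inputs was 0.644 FPKM over 534 noncoding genes and 4.73 FPKM over all 7307 genes with a value.

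**Figure D2:**
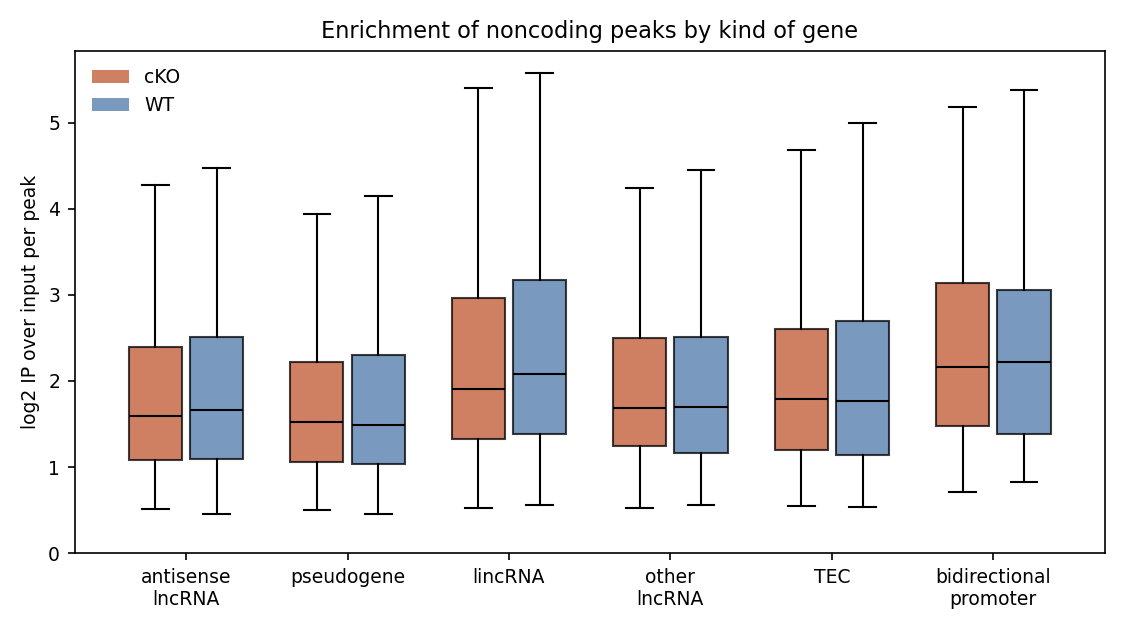
Log2 IP over input per noncoding peak for the 6 largest kinds of gene, with cKO boxes left of WT boxes. Boxes span the quartiles with the median as a line, whiskers reach 1.5 interquartile ranges, and points beyond are not drawn. The medians run between 1.52 and 2.16 in cKO and between 1.49 and 2.22 in WT.

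The highest enrichments were at lincRNAs, antisense lncRNAs, TEC genes and pseudogenes. The highest cKO values were 9.46 at Gm20784, 8.21 at Gm39228, 8.20 at Gm50273, 8.16 at Cerox1 and 8.15 at Gm12057. The highest WT values were 10.3 at Gm7292, 8.55 at Gm16010, 8.35 at Gm18666, 8.30 at Gm20663 and 8.25 at Gm45819. Of these, Gm20784 and Gm18666 were near-identical (at least 95% identity over at least 90% of the peak's exonic sequence) to the coding genes Ppp4r2 and D2hgdh. The input of the same genotype was 0 FPKM for Gm39228, 0.0150 FPKM for Gm16010, 0.0344 FPKM for Gm20663 and 6.84 FPKM for Gm7292. The others had no input value. A log2 of at least 7 was found at 42 noncoding cKO peaks, of which 17 overlapped a WT peak, and at 30 noncoding WT peaks, of which 11 overlapped a cKO peak. In other regions, 44 of 83 such cKO peaks and 32 of 77 such WT peaks had a partner. Among the peaks whose adjusted p the authors list as 0, Gm17484, a lincRNA, had the highest value in both genotypes (5.44 in cKO, 5.99 in WT), and these peaks also included the Chp1-like pseudogene Gm20056 (4.90 in cKO, 5.42 in WT) and Xist.

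Most noncoding genes had a single peak: 1531 genes in cKO and 1444 in WT. Kcnq1ot1, the antisense RNA that silences an imprinted domain on chromosome 7, had the most in cKO, with 13 peaks against 4 in WT. 1500004A13Rik, a processed transcript, had 11 cKO peaks and 7 WT peaks, the highest number in WT. Dleu2, host of Mir15a and Mir16-1, had 8 cKO and 5 WT peaks. The Kcnq1ot1 peaks lay between chr7:143257558 and chr7:143295482, in the 5′ part of a single transcript of 93092 bases. Its input level was 0.186 FPKM in cKO and 0.112 FPKM in WT.

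Some well-known lncRNAs carried peaks in both genotypes. Of 73 listed genes, 36 had a noncoding peak in cKO, 36 in WT and 34 in both. Of the 7 lists, only X inactivation had a median log2 above that of all noncoding peaks in both genotypes, and the snoRNA hosts, for one, had 1.58 in cKO and 1.01 in WT. Xist, which coats the inactive X chromosome, had 7 cKO peaks (0.70 to 3.87) and 5 WT peaks (2.48 to 3.88). Its strongest peak, chrX:103480966-103483254 on the minus strand in cKO, matched a WT peak with a difference of -0.00. In the input, Xist had 94.7 FPKM in cKO and 76.0 FPKM in WT. Jpx, a neighbouring lncRNA known to activate Xist, had 3.59 in cKO and 2.11 in WT at its matched peak, but its input was only 0.177 FPKM in cKO and 0.188 FPKM in WT. The peaks of Ftx, which hosts Mir374b and Mir421, lay between 1.32 and 1.99 in both genotypes, and 1 of its WT peaks (1.55) overlapped a cKO peak of 1.22 listed under Mir421.

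Neat1, the scaffold of paraspeckles, had 1 peak of 3371 bases with 3.28 in cKO and 3.35 in WT while its input was 64.1 FPKM in cKO and 163 FPKM in WT. Malat1, of nuclear speckles, had 2.24 in cKO and 2.14 in WT at its strongest peak, with 262 FPKM in cKO and 171 FPKM in WT input. Firre, which helps organise chromatin around the X chromosome, had 5 peaks in each genotype, up to 1.89 in cKO and 1.90 in WT.

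Of 9 imprinted lncRNAs, 4 had peaks in both genotypes. Kcnq1ot1 reached 5.20 in cKO and 5.65 in WT, the highest value of any listed gene. Meg3 had 7 cKO peaks up to 3.87 and 4 WT peaks up to 3.43. Airn, antisense to Igf2r, had 5 cKO peaks up to 3.73 and 4 WT peaks up to 1.42. The strongest cKO Airn peak overlapped a WT peak of 2.83 that the list gives to Gm16574. H19 had 1 cKO peak at 1.63 and 3 WT peaks up to 2.19, and its strongest WT peak overlapped a cKO peak of 2.51 listed under Mir675, the miRNA that H19 holds. Among lncRNAs with a role in macrophages, Ptgs2os2 (lincRNA-Cox2, induced by inflammatory signals) had 3.32 in cKO and 3.41 in WT, and AW112010 had 1.37 in cKO and 1.48 in WT. 2900097C17Rik, named Norad in RefSeq and known to bind Pumilio proteins, had 3.49 in cKO and 3.68 in WT. Trp53cor1 (lincRNA-p21), a target of p53, had 3.84 in cKO and 3.09 in WT, the latter over a longer peak that covered all its cKO peaks. Oip5os1 (Cyrano) had 2.01 in cKO and 2.17 in WT.

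**Figure D3:**
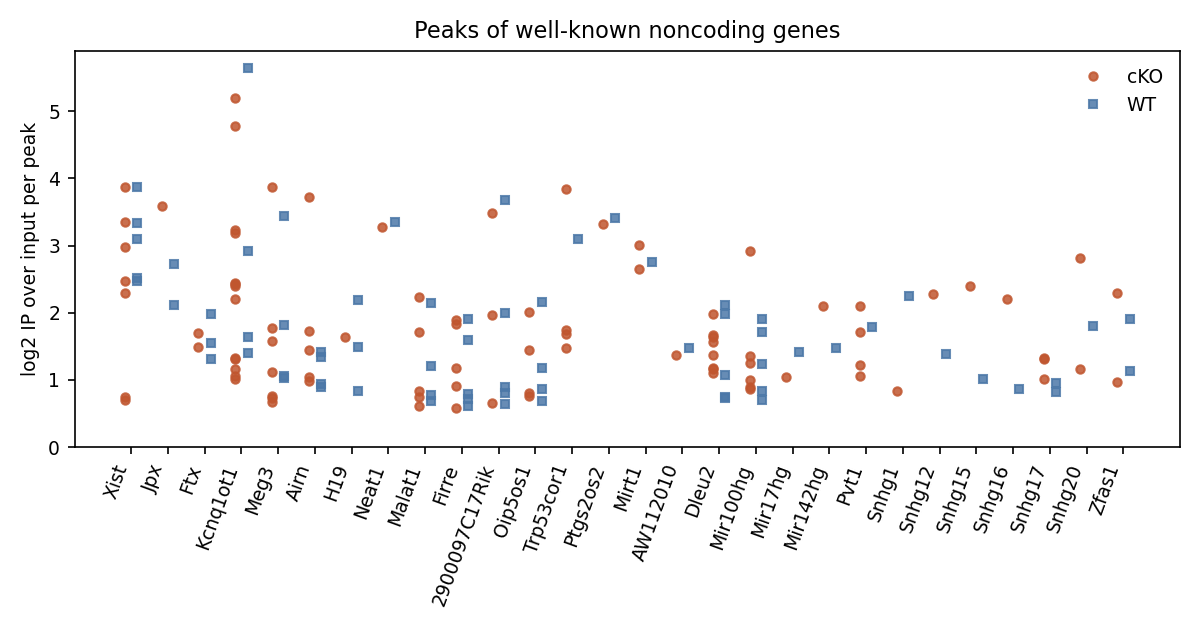
Log2 IP over input of each peak in well-known noncoding genes, with cKO circles left of WT squares. Kcnq1ot1 tops the plot with 5.20 in cKO and 5.65 in WT, and the snoRNA host genes Snhg12, Snhg15 and Snhg16 have cKO circles above their WT squares. The cKO peak at the WT place of Snhg1 is listed under Snord22 and is not drawn.

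The listed host genes of small nucleolar RNAs (snoRNAs, guides of ribosomal RNA modification) had mostly higher values in cKO. Among 19 listed hosts, 11 had a peak in either genotype, and their 9 matched peaks had a median difference of 0.50, against 0.04 over all 19387 matched peaks. Snhg12 had 2.29 in cKO and 1.38 in WT. Snhg15 had 2.39 in cKO and 1.01 in WT, and Snhg16 had 2.20 in cKO and 0.87 in WT. Snhg20, which is on the list by name but holds Mir6516 and no snoRNA gene in its span, had 2.81 in cKO and 1.81 in WT. Zfas1, with 2 peaks in each genotype, had 2.30 and 0.97 in cKO and 1.91 and 1.14 in WT, so its weaker peak went the other way. At Gas5, Snhg6, Snhg18 and Snhg1 the overlapping peaks carry different names in the deposited lists, since the longer cKO peak is given to the intronic snoRNA. The Snord47 peak in cKO (2.08) covered the Gas5 peak of WT (0.95). The Snord87 peak in cKO (1.57) covered the Snhg6 peak of WT (0.95), and the Snord123 peak in cKO (1.19) covered the Snhg18 peak of WT (0.61). The Snord22 peak in cKO (2.01) covered the Snhg1 peak of WT (2.25), so 3 of these 4 were also higher in cKO. These 4 pairs were looked up after their values were seen. Genes outside the list that hold a snoRNA gene in their span went both ways at overlapping peaks. 1110038B12Rik had 1.64 in cKO and 1.33 in WT. Dancr, which holds Snora26, had 1.31 in cKO and 2.85 in WT, and AI506816 had 2.08 in cKO and 3.53 in WT.

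Hosts of miRNAs were found by span. There were 30 noncoding genes with a peak and a miRNA gene within their span in cKO and 27 in WT, with medians of 1.57 in cKO and 1.48 in WT. Mir142hg, host of a miRNA abundant in blood cells, had 2.11 in cKO and 1.48 in WT. Mir17hg, host of the miR-17 cluster, had 1.05 in cKO and 1.42 in WT. At Dleu2 the strongest peak had 1.98 in cKO and 2.12 in WT. Mir100hg reached 2.93 in cKO and 1.90 in WT, with an input of 0.251 FPKM in cKO and 0.369 FPKM in WT.

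Peaks annotated to a miRNA gene itself were in 31 genes, 14 of them in both lists. The mature RNAs of 4 such genes, whose whole RefSeq hairpin (GRCm38.p6) lay under a peak in both genotypes, are shown with the seed (bases 2 to 8) in capitals. No 2 of them share a seed.
mmu-miR-6363: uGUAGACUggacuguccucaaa
mmu-miR-6340: gUCAGCAGcagcuucgcuuuggc
mmu-miR-1896: cUCUCUGAuggugggugaggag
mmu-miR-6244: gGGGGCGUggaauuaucgggu
Mir6363 (chr16:50727132-50727245, plus strand) had 4.28 in cKO and 5.06 in WT. Mir6340 (chr2:173701030-173701148, minus strand) had 3.59 in cKO and 3.85 in WT. Mir1896 had 3.52 in cKO and 3.75 in WT, under peaks that ran over 4214 bases in cKO and 4239 bases in WT. Mir6244 had 2.35 in cKO and 2.58 in WT. These 4 were lower in cKO by less than 1 on the log2 scale, but of all 16 matched peaks in miRNA genes 8 were higher and 8 lower in cKO, with a median difference of 0.03. Mir8099-1, with 98.4% of its hairpin under the peak, had 2.08 in cKO and 1.60 in WT. The libraries were made from fragmented poly(A) RNA, so these peaks do not measure the mature miRNA.

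Pseudogene peaks were mostly near-identical in sequence to a coding transcript. A near-identical coding copy elsewhere (at least 95% identity over at least 90% of the peak's exonic sequence) was found for 476 of 674 pseudogene peaks in cKO (70.6%) and 440 of 637 in WT (69.1%). Outside pseudogenes this held for 20 of 2085 peaks in cKO and 16 of 1934 in WT. Copies of cytosolic ribosomal protein genes made up 132 of the near-identical pseudogene peaks in cKO and 107 in WT. The coding copy had a peak of its own for 450 of the 476 in cKO and 423 of the 440 in WT. How reads that fit both places were counted is not given in the sources used here, so the values of these pseudogenes are uncertain.

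The following 60-base stretches stand both in the pseudogene's peak and in transcripts of the coding gene, letter for letter. A read that lies wholly within such a stretch fits both loci. They were taken from GENCODE M21 transcripts.
Gm5641 and Hnrnpa3: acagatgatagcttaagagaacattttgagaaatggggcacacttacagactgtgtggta
Rpsa-ps10 and Rpsa: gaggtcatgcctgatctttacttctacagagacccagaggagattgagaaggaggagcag
The whole Gm5641 peak of 1150 bases (chr3:54481538-54482687, plus strand) was identical to Hnrnpa3, which codes for a nuclear RNA-binding protein. Rpsa-ps10 (chr3:150072658-150072957, minus strand) was 99.3% identical to Rpsa.

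A part of the antisense lncRNA peaks overlapped a peak on the other strand. This contact was counted for noncoding peaks only, so no share over all peaks stands beside it. A noncoding peak touched, exon to exon, a peak on the opposite strand in 632 cases in cKO (22.9%) and 614 in WT (23.9%). Among antisense lncRNA peaks this was 382 of 883 in cKO (43.3%) and 372 of 806 in WT (46.2%). Where each peak of such a pair covered at least 50% of the other, the log2 values of both strands correlated across pairs (Pearson's r of 0.81 over 143 pairs in cKO and 0.87 over 141 pairs in WT). These pairs share their libraries, position and base composition. The noncoding peak was the higher one in 90 of the cKO pairs and 95 of the WT pairs. The library protocol kept strand, but whether the authors counted by strand is not given in the sources used here, so reads of a gene and its antisense partner may not be separated.

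The share of noncoding peaks that touched the last exon of spliced transcripts was above that exon's length share, as in other regions. A peak that spans many bases can touch an exon more often than its length share, so this comparison cannot show a preference. Over all transcripts the centres of noncoding peaks lay near the middle. Transcripts under noncoding peaks were shorter, with a median of 1323.5 bases in cKO and 1353 in WT. In other regions the median was 3507.5 bases in cKO and 3470 in WT. The part of transcript length in the positions below was not tested. The median relative position of the centre, with 0 at the 5′ end and 1 at the 3′ end, was 0.51 in cKO and 0.50 in WT, against 0.62 for cKO and 0.62 for WT peaks in other regions. The 5′ end was reached by 17.7% of noncoding cKO and 19.3% of noncoding WT peaks, against 4.50% of cKO and 4.55% of WT peaks in other regions. Of the 1590 cKO and 1496 WT peaks placed on transcripts with several exons, 74.8% in cKO and 76.1% in WT touched the last exon, which held a mean of 59.4% of the transcript in cKO and 59.2% in WT. In other regions, 62.9% of cKO and 62.9% of WT peaks touched the last exon, which held a mean of 47.4% in cKO and 47.3% in WT. Single-exon transcripts carried 41.9% of noncoding cKO peaks and 41.3% of noncoding WT peaks, against 1.40% of cKO and 1.45% of WT peaks in other regions.

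GGAC occurred in 67.9% of noncoding cKO peaks (interval 66.1 to 69.7) and 71.1% of noncoding WT peaks (69.3 to 72.8) on the RNA's own strand. On the complementary strand it occurred in 62.7% of cKO and 63.8% of WT peaks. Over all peaks the share on the own strand was 64.6% in cKO and 65.1% in WT. Noncoding peaks were longer, with a median of 322 exonic bases against 302 over all peaks in cKO and 325 against 300 in WT. Per kilobase of exonic sequence they held 4.35 GGAC in cKO and 4.47 in WT, against 4.34 in cKO and 4.38 in WT over all peaks. The rest of the transcript was compared where it had at least 200 bases, for 2248 noncoding cKO and 2076 noncoding WT peaks. There, noncoding cKO peaks held 4.25 GGAC per kilobase against 3.45 in the rest of the same transcripts, and noncoding WT peaks held 4.36 against 3.54. Over all peaks the values were 4.31 against 3.99 in cKO and 4.35 against 4.01 in WT. On the complementary strand, antisense lncRNA peaks held 4.19 GGAC per kilobase in cKO and 4.24 in WT, and lincRNA peaks 3.18 in cKO and 3.06 in WT. With the same minimum of 200 bases, pseudogene peaks in cKO held 4.22 per kilobase, against 4.22 in the rest of their transcripts, and WT pseudogene peaks held 4.25 against 3.92. Peaks with a log2 of at least 2 held GGAC in 75.5% of cKO and 79.0% of WT cases, and were longer, with a median of 375 exonic bases in cKO and 400 in WT against 322 and 325 for all noncoding peaks of cKO and WT.

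Most noncoding peaks of one genotype overlapped a peak of the other. A partner on the same strand with at least 1 shared base was present in the WT list for 1839 noncoding cKO peaks, 66.7% (interval 64.9 to 68.4), and in the cKO list for 1778 noncoding WT peaks, 69.2% (67.3 to 70.9). In other regions the shares were 71.6% of cKO (71.2 to 72.1) and 73.5% of WT peaks (73.0 to 73.9), above the noncoding intervals. Pseudogene peaks shared least among the large kinds, with 62.2% in cKO and 65.0% in WT, and peaks of bidirectional promoter transcripts most, with 73.0% in cKO and 75.9% in WT. By the gene name the lists give, 1486 noncoding genes were in both lists, 510 in the cKO list alone and 404 in the WT list alone. Peaks with a partner were stronger, with a median of 1.80 in cKO and 1.81 in WT, than peaks without (1.47 in cKO, 1.46 in WT). GGAC stood in 74.8% of cKO and 76.2% of WT noncoding peaks with a partner and in 54.3% of cKO and 59.6% of WT ones without, which were shorter (median 225 exonic bases against 375 in cKO, and 231 against 375 in WT).

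Where noncoding peaks matched one to one, the genotypes had nearly the same enrichment. Over 1434 pairs the median was 1.83 in cKO and 1.81 in WT, and the median difference, cKO minus WT, was -0.00 with quartiles of -0.37 and 0.34. There were 715 pairs higher in cKO and 719 lower in cKO, where 45.2% of all 19387 matched peaks were lower in cKO. A difference of at least 1 was found upward in 102 pairs (7.11%) and downward in 111 (7.74%), where the background over all matched peaks was 3.03% upward and 2.55% downward. Of these 213 large differences, 114 were in pairs without an input value, where they made up 11.2% of 1016 noncoding pairs and 4.52% of 6445 pairs of other regions. Among genes with an input value the share was highest at a low input. They made up 29.3% of 225 noncoding pairs below 1 FPKM and 25.1% of 1032 pairs of other regions at that level. From 1 to 10 FPKM the shares were 19.9% of 136 noncoding and 4.04% of 6777 other pairs, and from 10 FPKM on 10.5% of 57 noncoding and 1.19% of 3699 other pairs. All 6 noncoding pairs past 1 in the highest class, and 13 of the 27 in the middle one, lay in near-identical copies of coding sequence. Input values exist only for genes with a listed differential peak, so these shares do not hold for genes in general.

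Among noncoding pairs, the sign of the difference varied with the strength of the peak. Split into 5 classes by mean log2, the share of noncoding pairs lower in cKO was 40.1% in the weakest class, then 46.0%, 49.7%, 58.9%, and 56.1% in the strongest. The median in the strongest class was 3.58 in cKO and 3.70 in WT. The same split was not made over all 19387 matched peaks, of which 45.2% were lower in cKO. Whether the pattern is particular to noncoding peaks was therefore not tested.

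**Figure D4:**
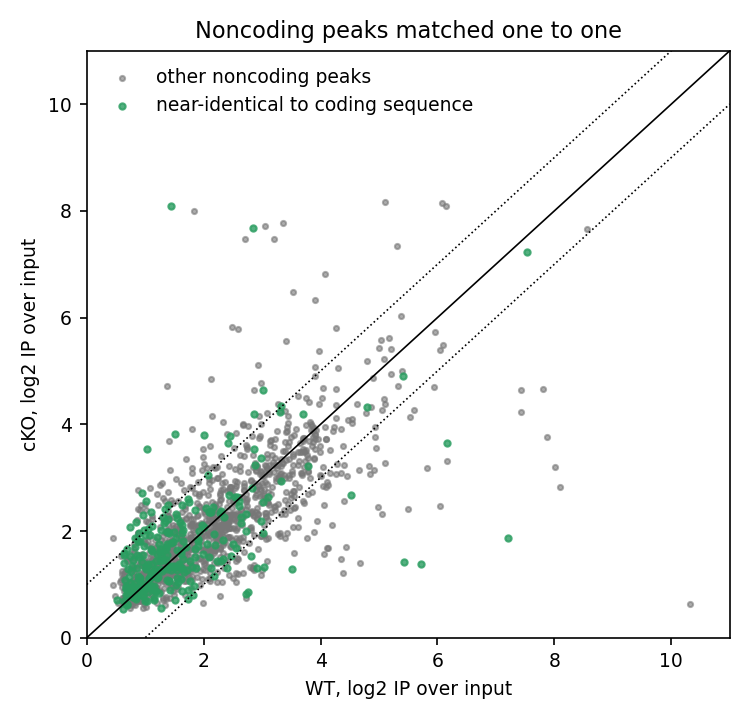
Log2 IP over input in cKO (vertical) against WT (horizontal) for 1434 noncoding peaks matched one to one. The solid line marks equal values and the dotted lines a difference of 1. Green points are near-identical to coding sequence, and 102 points lie on or above the upper dotted line and 111 on or below the lower one.

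The largest matched differences included genes with an input below 1 FPKM, such as Gm3807 (0.120 FPKM in cKO, 0.0186 FPKM in WT), near-identical copies, and the lincRNA Gm7292, whose input was 12.1 FPKM in cKO and 6.84 FPKM in WT. Downward they were Gm7292 (0.64 in cKO, 10.3 in WT), Mir703 (1.88 in cKO, 7.21 in WT), Gm20949 (2.82 in cKO, 8.09 in WT), Gm3807 (3.20 in cKO, 8.01 in WT) and Gm5641 (1.39 in cKO, 5.71 in WT). Upward they were Gm45315 (8.09 in cKO, 1.44 in WT), Gm39397 (8.00 in cKO, 1.83 in WT), Gm6741 (7.68 in cKO, 2.85 in WT), Gm7008 (7.48 in cKO, 2.71 in WT) and Gm15489 (7.71 in cKO, 3.04 in WT). Of these, Mir703, Gm5641, Gm45315 and Gm6741 had a near-identical coding copy of the cKO peak, from Eef1a1, Hnrnpa3, Hmgb1 and Nanp in that order, and the WT peak of Gm20949 was near-identical to Relt.

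The authors' deposited table of differential peaks, which lists only peaks with p below 0.05, split the noncoding members nearly evenly: 314 were higher and 342 lower in cKO (52.1% lower, interval 48.2 to 56.0). The background was 48.9% higher and 51.1% lower over the whole of the authors' deposited table. At adjusted p below 0.05, 150 noncoding peaks of the authors' deposited table were higher and 154 lower, 46.3% of the members, where the background was 24.4% higher and 28.9% lower. The p-values of the authors' deposited table come from 1 library per condition and compare those libraries. A difference of at least 1 was listed for 410 noncoding members, 62.5%, against a background of 35.6% in the authors' deposited table. These shares hold only for peaks that passed the p filter, and noncoding genes with an input value were mostly low. The part of the filter and of low input in this excess was not tested. In 138 of the 656 members the authors' deposited table gave IP below input in 1 genotype, and in 1439 of all 10355 listed peaks. By kind, the authors' deposited table had 81 antisense lncRNA peaks higher and 111 lower, 100 pseudogene peaks higher and 94 lower, and 51 lincRNA peaks higher and 47 lower in cKO.

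Near-identical copies led the list by p. They were 153 of the 656 members (23.3%) and 26 of the 50 with the lowest p in the authors' deposited table. Higher in cKO with the lowest p was Rpl17-ps5, with 2.15 in cKO and a difference of 4.15 (IP below input in WT) in the authors' deposited table (adjusted p = 2.9e-116). Gm13841, a Rpl29 copy, had 2.11 in cKO and 0.82 in WT, and Gm10163, a Rpl21 copy, had 2.17 in cKO and 0.04 in WT, in the authors' deposited table. Lower in cKO with the lowest p was Gm5641, with 1.17 in cKO and 5.67 in WT in the authors' deposited table (adjusted p = 3.9e-99). Gm4735, an Eno1b copy, had 0.37 in cKO and 1.48 in WT in the authors' deposited table. Rps2-ps13 had 0.78 in cKO and 2.69 in WT, and Rpsa-ps10 had 0.83 in cKO and 2.07 in WT, in the authors' deposited table.

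The coding copies had listed peaks of their own for 102 of the 153 near-identical members. Taking the coding gene's peak of lowest p in the authors' deposited table, both were higher in cKO in 40 cases and both lower in 18, while in 33 cases the noncoding peak was lower and the coding one higher, and in 11 the reverse. The 102 cases held 84 distinct coding genes, so some coding values were entered more than once. The coding peak could lie anywhere in its gene, in some cases in an intron. These counts therefore do not compare the same stretch in both genes. Gm4735 had a difference of -1.11 in the authors' deposited table where Eno1b had one of 3.49. For Gm5641 the input had 33.2 FPKM in cKO and 6.20 FPKM in WT, and for Hnrnpa3, identical over the peak, 0.833 FPKM in cKO and 6.26 FPKM in WT. The inputs of this pair thus differed in opposite directions.

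Among members without a near-identical coding copy, those with the lowest p in the authors' deposited table had differences below 1. Gm45774, an antisense lncRNA on chr8:94172598-94173412, had 2.07 in cKO and 1.77 in WT in the authors' deposited table (adjusted p = 1.4e-62). 4930430E12Rik, another antisense lncRNA, had 2.48 in cKO and 3.04 in WT, and Gm11175 had 3.27 in cKO and 3.83 in WT, in the authors' deposited table. Gm8995, a pseudogene 91.9% identical to Gm4070 and so short of the 95% limit, had 2.87 in cKO and 3.18 in WT in the authors' deposited table.

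Of the well-known genes, the authors' deposited table listed 26 peaks, 17 higher and 9 lower in cKO, of which 10 higher and 3 lower had an adjusted p below 0.05. The background over the whole of the authors' deposited table was 48.9% higher and 51.1% lower. At adjusted p below 0.05 it was 24.4% higher and 28.9% lower. All 6 listed peaks of snoRNA hosts were higher in cKO, and 4 passed in the authors' deposited table: Snhg12 (0.87, adjusted p = 0.0015), Zfas1 (0.39, adjusted p = 0.0037), Snhg6 (0.63, adjusted p = 0.015) and Snhg15 (1.45, adjusted p = 0.024). Snhg16 and Snhg20 had differences of 1.32 and 1.08 in the authors' deposited table, with adjusted p = 0.075 and 0.061. The count of 6 goes by the listed gene names, so a peak given to Snord22, over Snhg1, or to the unlisted host Dancr is outside it. Inputs of the listed hosts were not all alike, with Zfas1 at 24.9 FPKM in cKO and 15.9 FPKM in WT, and Snhg6 at 5.03 FPKM in cKO and 10.2 FPKM in WT. Rn7sk, the RNA that holds the elongation factor P-TEFb in check, had 2.39 in cKO and -2.48 in WT in the authors' deposited table (adjusted p = 2.8e-04), with an input of 4.31 FPKM in cKO and 4.07 FPKM in WT. Mirt2 had 0.05 in cKO and 1.33 in WT in the authors' deposited table (adjusted p = 0.0062). In the peak list of each genotype, however, Mirt2 had a peak of 1.16 in cKO and 1.37 in WT. These peaks differ in extent (chr15:76266461-76267385 in cKO, chr15:76266461-76269692 in WT). Whether Mirt2 carried the mark in cKO macrophages was not tested. Xist at chrX:103465691-103468036 had 2.22 in cKO and 2.41 in WT in the authors' deposited table (adjusted p = 3.0e-10). Mir142hg was higher by 0.60 in the authors' deposited table, just inside the threshold (adjusted p = 0.04997).

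**Figure D5:**
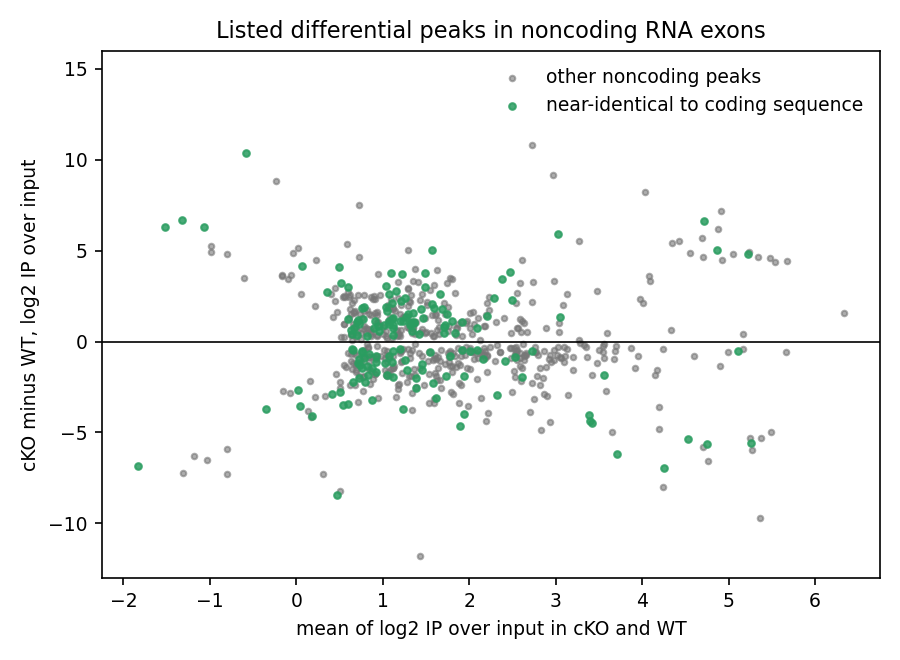
Difference in log2 IP over input, cKO minus WT, against the mean of both genotypes, for the 656 noncoding peaks of the authors' deposited table. Positive values are higher in cKO, and green points are near-identical to coding sequence (153 peaks). The differences run from -11.8 at D030055H07Rik to 10.8 at Gm50273, both with IP below input in 1 genotype, while Gm7292 (-9.71) had IP above input in both.

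In the input libraries, 225 noncoding genes had a mean of at least 1 FPKM. On the log2(FPKM + 1) scale, which understates changes of low genes, their median difference, cKO minus WT, was 0.11, against -0.02 over all 6079 genes at that level. A 2-fold difference was reached by 12 noncoding genes upward and 9 downward, where the background was 0.411% upward and 0.428% downward. Of these 21 genes, 17 were pseudogenes. Highest in cKO relative to WT were Gm6977 (4.34 FPKM in cKO, listed at 0 in WT), Gm5641, Hspd1-ps3 (7.63 FPKM in cKO, 0.933 FPKM in WT), Gm15459 (25.5 FPKM in cKO, 5.05 FPKM in WT) and Gm9830 (4.76 FPKM in cKO, 0.354 FPKM in WT). Hspd1-ps3 had q = 0.033 in the authors' deposited table. Lower in cKO were AI506816 (0.0840 FPKM in cKO, 5.04 FPKM in WT), Gm7334 (0.772 FPKM in cKO, 4.13 FPKM in WT), Gm42031 (1.17 FPKM in cKO, 5.27 FPKM in WT), Gm45315 (2.67 FPKM in cKO, 9.02 FPKM in WT) and Gm47283 (2.64 FPKM in cKO, 8.48 FPKM in WT), the last a gene that GENCODE M21 lists as coding. None of these 5 had q below 0.05 in the authors' deposited table.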

How the data were processed

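Members and gene lists were chosen with earlier results of these data known. The labels' protocols describe oligo(dT)-selected RNA that was fragmented, enriched with an m6A antibody and made into strand-marked (dUTP) libraries, with 1 IP and 1 input library per genotype. Genome build mm10 and, in no stated role or order, the programs edgeR, StringTie, ChIPseeker, HOMER, HISAT2 and fastp come from the submitters' processing notes. Which program called peaks, how IP was scaled to input, and versions: not given in the sources used here.

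Each deposited peak list gives a log2 fold (IP over input) per peak, with a p-value before and after adjustment, per the file headers. The deposited differential table holds the log2 difference, cKO minus WT, with p-values, for peaks with p below 0.05. A deposited gene table gives input FPKM for genes with a listed differential peak, so Mettl3 has none. Depth is unknown. With 1 library per group, the authors' p-values compare libraries. Intervals are exact binomial (Clopper-Pearson) and cover counting error only.

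Kinds of gene are GENCODE M21 biotypes by gene ID. Starts count from 0 in the files and positions are printed 1-based. Peaks were compared on the same strand with at least 1 shared base. Tables were joined with pandas 2.3.3 in Python 3.11.15, near-identical copies were found with BLAST 2.17.0 against coding transcripts, and GGAC was counted in peak exons. Named genes are the members of 7 lists, the highest peaks, the largest matched differences, the lowest p of each direction, the genes with most peaks and the largest input differences. Functions were tested on simulated intervals. Where a well-known gene has several peaks, the strongest is given unless stated. 1 further pseudogene that the rule names is not reported here.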

Additional observations from a re-analysis of the deposited data

How the results depend on the processing

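No paired analysis was possible because each group has 1 library. Settings without near-identical copies, without other-strand contact or by contact of transcript exons were chosen after seeing the data. Exon blocks of peaks were not run, since the files used here give none. Counting only peaks with a log2 of at least 1, noncoding exons held 8.72% of cKO and 9.03% of WT peaks. By symbol alone, pseudogenes (-ps) were 5.69% of cKO and 5.56% of WT members and antisense symbols 3.70% of cKO and 3.66% of WT members, since most symbols begin with Gm. Counted over genes, pseudogenes were 28.6% in cKO and 27.8% in WT. The median log2 was 1.86 in cKO and 1.91 in WT over the strongest peak of each gene, and 1.73 in cKO and 1.80 in WT without near-identical copies. The share with a partner was 47.2% in cKO and 50.6% in WT at 50% of both peaks, 64.6% in cKO at a log2 of at least 1 in both, 64.3% in cKO and 67.2% in WT by exon contact, and 68.5% in cKO without near-identical copies. Listed differential peaks numbered 150 higher and 154 lower at adjusted p below 0.05, and 99 higher and 83 lower (45.6% lower) with a difference of at least 1 as well, where all listed peaks had 950 higher and 718 lower (43.0% lower). Without a filter on low values the median input difference was 0.025, and at a mean of at least 5 FPKM the genes past 2-fold were 6 higher and 5 lower. GGACT occurred in 32.3% of cKO and 34.6% of WT peaks, GGAC on the complementary strand in 62.7% of cKO and 63.8% of WT peaks, and GGAC in 75.5% of cKO and 79.0% of WT peaks at a log2 of at least 2. The other 39 of 71 recomputed values stayed within the 95% interval of the reported value, or within 1.5 times a reported count. Unknown depth limits all of these.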
